A study of Sus scrofa with 16 samples.

Results

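The hippocampus of preterm pigs with necrotizing enterocolitis (NEC) of the small intestine was set against the hippocampus of pigs whose NEC was confined to the colon. By the sample labels, 6 pigs belonged to the small-intestinal group (Si-NEC) and 5 to the colon group (Co-NEC), together 11 of the 16 pigs sequenced, and the remaining 5 pigs without lesions (No NEC) are given for reference only. Both groups were ill, so the contrast asks whether the site of the gut lesion goes with a difference in brain expression. The genes were not chosen beforehand: every entry of the deposited table was tested unless it fully repeated another entry or averaged below 0.5 FPKM in the 16 pigs, which left 13590 of 24594 entries. FPKM, fragments scaled to transcript length and library size, is a level per length, and differences are in log2(FPKM + 0.5), Si-NEC minus Co-NEC.

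The pigs were crossbred, not genetically modified, and delivered by cesarean section at 90% of gestation. They were reared for 8 days on human donor milk and parenteral nutrition, under which NEC developed spontaneously, so no pig was assigned to its group. Si-NEC stood for a severity score of at least 4 in the small intestine, whatever the state of the colon, Co-NEC for such a score in the colon alone and No NEC for a score of 1 in every region. Some Si-NEC pigs may therefore have had lesions at both sites, and lesion site cannot be told apart here from how far the gut was affected. Sex was close to balanced, with 3 female and 3 male Si-NEC pigs and 2 female and 3 male Co-NEC pigs. The pig numbers end in 14 or 15, a suffix whose meaning the labels do not give. There were 4 Si-NEC and 3 Co-NEC pigs with the suffix 15, and 2 of each group, all male, with the suffix 14. Litters are not given in the labels.

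NEC is an inflammatory disease of the immature gut in which the mucosa bleeds and dies, and products of gut bacteria and inflammatory mediators can reach the blood. Brain endothelial cells, microglia and astrocytes respond to such mediators through NF-kB, STAT3 and interferon signaling, which switch on chemokines, acute-phase genes and antiviral genes. Around birth the hippocampus also adds neurons in the dentate gyrus, builds synapses and begins to myelinate, processes that depend on the local synthesis of cholesterol and fatty acids.

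The left hippocampus was used whole, and its profile was that of hippocampal tissue in all groups. SLC17A7, the glutamate transporter of excitatory neurons, was at 490 to 679 FPKM over the Si-NEC and 510 to 639 FPKM over the Co-NEC pigs, and PROX1, a marker of dentate granule cells, was at 6.54 to 10.04 and 4.92 to 10.3 FPKM. Choroid plexus was barely present by CLIC6 (0.232 FPKM at most in these 11 pigs), while TTR reached 25.3 FPKM. Si-NEC pig 223-15 stood apart. Its FPKM values summed to 823320, against a group median of 609641 in Co-NEC, its median correlation with the other pigs was 0.933 (0.949 to 0.960 in the other 10) and limma gave it an array weight of 0.141 (0.583 to 2.32 in the others). It was the highest of the 11 pigs for 34.2% of all entries, so results are given with and without it where it matters. Among the No NEC pigs, 230-15 stood further apart, with a sum of 864931 and a median correlation of 0.902. The No NEC ranges given for reference include it, so their ends can rest on that pig. The read depth behind the FPKM values is unknown.

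Across the whole transcriptome, few entries separated the groups. At an adjusted p under 0.2 (limma, Benjamini-Hochberg) 2 entries passed (0.0147% of the 13590 tested), and 1 of them also passed 0.05 (0.00736%). The next smallest adjusted p was 0.308. At an unadjusted p under 0.05 there were 441 entries higher in Si-NEC (3.25%) and 326 lower (2.4%), 767 in all where 679.5 would be expected from uniform p-values. No value overlapped between the groups for 42 entries that were higher in every Si-NEC pig (0.309%) and 32 that were lower in every Si-NEC pig (0.235%). If the pigs were split at random, a share of 0.00216 of the entries would be expected in each direction (1 of 462 ways). That share is a fraction, while 0.309% and 0.235% are percentages. On the same scale, the share of lower entries lay close to it and that of higher entries somewhat above it. Without pig 223-15, 571 entries were higher (4.2%) and 633 lower (4.66%) at an unadjusted p under 0.05, so the majority changed from higher to lower. Array weights, which let limma count that pig for less, gave 201 entries at an adjusted p under 0.2 (1.48%), of which 100 were higher and 101 lower in Si-NEC.

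**Figure D1:**
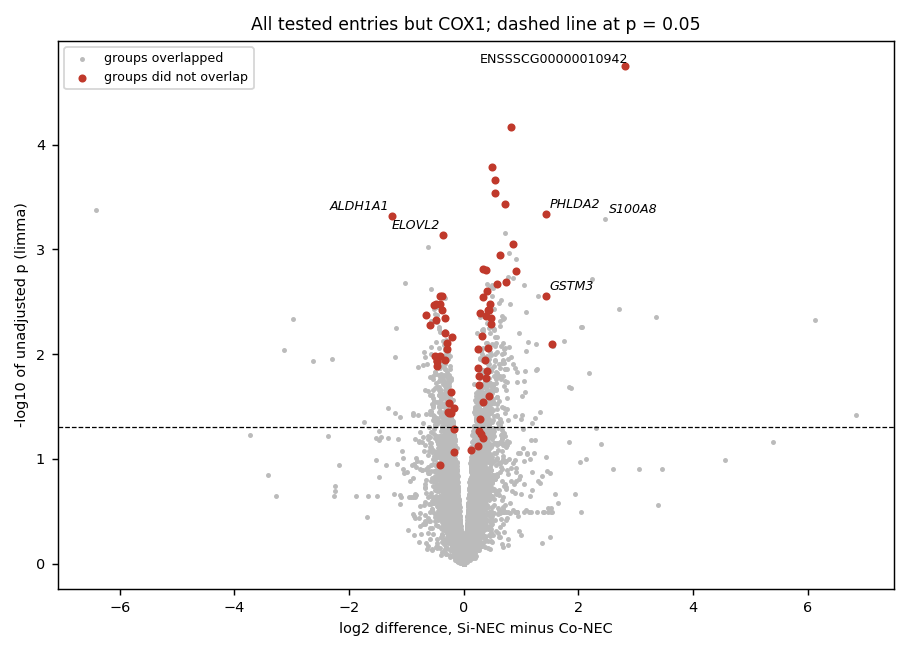
Each point is 1 of the tested entries, with the log2 difference between Si-NEC and Co-NEC pigs on the horizontal axis and the negative log10 of the unadjusted limma p on the vertical axis, and red points are the entries whose groups did not overlap. COX1 lies far outside the axes and is left out. Only ENSSSCG00000010942, at the top, passed the adjusted threshold beside COX1, and most differences lay close to 0.

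The difference also depended on how strongly a gene was expressed. Entries were split by mean FPKM into 5 classes of 2718. In the highest class, 167 of 208 entries at an unadjusted p under 0.05 were higher in Si-NEC (80.3%), while in the other classes that share was 44.8% to 51.9%. The median log2 difference of the highest class was 0.063, and 0.024 without pig 223-15. Over all entries 50.1% had a difference above 0 and 49.9% one below 0. Pig 223-15 was the highest of the 11 pigs for 41.7% of the 441 higher entries, pig 539-14 for 20.6% and pig 246-15 for 17.7%. Over all entries these pigs were the highest for 34.2%, 8.05% and 10.3%. Among the 326 lower entries, the lowest pig was 539-14 for 36.2% and 223-15 for 35.6%, against 17.6% and 21.3% of all entries. Entries picked as higher or lower in Si-NEC have their extreme value in a Si-NEC pig almost by construction, which raises the share of each Si-NEC pig. What these pigs share was not tested.

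Both entries that passed the threshold rested on listed zeros. COX1, the mitochondrial gene of cytochrome c oxidase subunit 1, fell from 9929, 12599, 13477, 14981 and 15986 FPKM in the Co-NEC pigs to a listed 0 in all 6 Si-NEC pigs, and it was listed at 0 in all No NEC pigs too. No fold is given for it. COX2, the neighbouring subunit of the same enzyme, was at 13454 to 35333 FPKM in Si-NEC and 10782 to 20358 FPKM in Co-NEC pigs. A zero for COX1 beside COX2 at this level can be a failed estimate, and the listed values do not tell which. ENSSSCG00000010942, which has no symbol in the annotation used, rose to 2.90 FPKM at the lowest, 4.04 at the median and 8.46 at the highest in Si-NEC. It was listed at 0 in 4 Co-NEC pigs and at 1.89 FPKM in Co-NEC pig 231-15 (adjusted p = 0.12, limma). Its No NEC values ran from 0 to 10.7 FPKM and spanned both groups.

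Among genes with a symbol, those that set the groups apart included PHLDA2, S100A8, GSTM3, AZI2, MT3 and S100A1, which were higher in Si-NEC, and ALDH1A1, ELOVL2, NYAP2 and RAB3D, which were lower. None of these passed an adjusted p of 0.2 in limma (0.634 was the smallest), though all 10 did with array weights (0.141 to 0.197), and each is described by its values and by a 2-sided exact permutation test over the 462 ways to draw 6 of the 11 pigs, whose smallest possible p is 0.00216. These genes were picked from all tested entries for a small p or for groups that did not overlap. Their permutation p and their separation come from the same pigs, so they describe the genes and add no independent support. PHLDA2, an imprinted gene that restrains placental growth, was at 17.4 (lowest), 29.5 (median) and 45.2 (highest) FPKM in Si-NEC, and the Co-NEC pigs were at 5.67, 7.88, 10.96, 15.4 and 16.05 FPKM. All 6 Si-NEC pigs lay above all Co-NEC pigs, with pig 223-15 nearest to them (17.4 FPKM). The means were 30.9 ± 11.1 FPKM (SD, n = 6) against 11.2 ± 4.54 (SD, n = 5) (log2 difference 1.45, standard error 0.30, exact permutation p = 0.00433). No NEC pigs were at 2.24 to 29.3 FPKM and overlapped with both groups. Leaving out single pigs gave 1.24 to 1.60, and the suffix 14 pigs alone 1.44.

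S100A8, one chain of the calcium-binding alarmin calprotectin, had the largest difference of the named genes other than the 2 called entries. It was at 2.21 (lowest), 10.9 (median) and 24.97 (highest) FPKM in Si-NEC, against 0.734, 0.918, 1.21, 1.67 and 2.31 FPKM in Co-NEC. Of the 6 Si-NEC pigs, 5 were above all Co-NEC pigs, and the exception was 547-14 at 2.21 FPKM. The ratio of the group means was 9.16, with No NEC pigs at 0.764 to 3.08 FPKM (log2 difference 2.47, standard error 0.53, exact permutation p = 0.00649). The difference was 3.34 within the suffix 15 but 0.88 within the suffix 14, and 1.97 without pigs 223-15 and 246-15. S100A8 is abundant in neutrophils, whose other markers were low in both groups. MMP8, MMP9, LTF, MPO, ELANE and PRTN3, which encode neutrophil granule proteins, reached at most 0.973 FPKM in any Si-NEC pig. CSF3R, the receptor for the neutrophil growth factor G-CSF, was listed at 0 in every pig. The astrocyte marker ALDH1L1 and the mural marker MYH11 were also listed at 0 in every pig. Such a zero can be a failed estimate, so that of CSF3R does not tell how many neutrophils were present. Summed over the 8 other listed neutrophil genes with an entry, the range was 1.68 to 3.87 FPKM in Si-NEC and 1.47 to 2.995 FPKM in Co-NEC. Their part in the S100A8 difference was not tested. In bulk tissue, fewer or more cells of a type and less or more RNA per cell cannot be told apart.

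Other S100 genes and a few genes of detoxification went the same way. S100A1, a calcium sensor, was at 1573 (lowest), 1706 (median) and 2636 (highest) FPKM in Si-NEC, and Co-NEC held 1249, 1287, 1296, 1368 and 1388 FPKM. The groups did not overlap (log2 difference 0.48, standard error 0.14, exact permutation p = 0.00433), and the difference was 0.38 without pig 223-15, the highest at 2636 FPKM. S100A11 differed by 0.66 (exact permutation p = 0.0368, 5 of 6 Si-NEC pigs above all Co-NEC pigs), while S100A10 and S100A14 differed by −0.015 and −0.11. GSTM3, a glutathione transferase, was at 24.8 (lowest), 53.2 (median) and 96.9 (highest) FPKM in Si-NEC against 8.901, 10.9, 23.9, 24.2 and 24.5 in Co-NEC. Its groups touched without overlapping, since Si-NEC pig 224-15 at 24.8 FPKM lay just above Co-NEC pig 545-14 at 24.5 FPKM (log2 difference 1.43, standard error 0.38, exact permutation p = 0.013). For GSTM3, No NEC pigs ranged from 7.55 to 70.1 FPKM and overlapped with both NEC groups. TST, a sulfur transferase of cyanide detoxification, differed by 0.71 (exact permutation p = 0.0108, 0.55 without pig 223-15). Both belong to a glutathione and metallothionein list in which 11 of 15 genes were above 0 (median 0.081). Pig 223-15 was the highest of the 11 pigs for 12 of the 15, and without it 6 of 15 were above 0 (median −0.044). In the same list, GSR, the glutathione reductase, was at −0.20.

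MT3, the brain metallothionein that binds zinc and copper, was at 4916 (lowest), 5794 (median) and 6657 (highest) FPKM in Si-NEC, and the Co-NEC pigs were at 3288, 3379.6, 3889, 4257 and 4467 FPKM. The groups were fully apart (log2 difference 0.59, standard error 0.15, exact permutation p = 0.00216), but 3 distinct entries carry this symbol and the value is for 1 of them. AZI2, an adaptor of the kinase TBK1 in antiviral signaling, was at 36.8 (lowest), 49.9 (median) and 68.1 (highest) FPKM in Si-NEC and 15.5, 23.1, 28.5, 35.2 and 36.5 FPKM in Co-NEC (log2 difference 0.91, standard error 0.22, exact permutation p = 0.00433), also as 1 of several entries of its symbol. Co-NEC pig 545-14 at 36.5 FPKM and Si-NEC pig 547-14 at 36.8 FPKM were almost level. Of the wider set of genes with the smallest p, ADAMTSL4, ZNF598 and SIRT6 were each higher in 6 of 6 Si-NEC pigs than in any Co-NEC pig, with log2 differences of 0.64, 0.34 and 0.39 and exact permutation p = 0.00433, 0.00216 and 0.00433. ZNF598 is a ubiquitin ligase that marks collided ribosomes, and SIRT6 is a histone deacetylase of DNA repair and metabolism. KCNK3, an acid-sensitive potassium channel, ALOX15, a lipoxygenase, and VIRMA, a subunit of the RNA m6A methyltransferase complex, were higher in 5 of 6 pigs (0.77, 0.80 and 0.87). ALOX15 and VIRMA are each 1 of several entries of the symbol.

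Among the genes lower in Si-NEC, ALDH1A1 stood out. This enzyme makes retinoic acid from retinal. It was at 1.49 (lowest), 2.85 (median) and 3.53 (highest) FPKM in the Si-NEC pigs and at 3.65, 5.98, 8.05, 8.12 and 11.9 FPKM in the Co-NEC pigs, with no overlap, although Co-NEC pig 255-15 at 3.65 FPKM lay just above Si-NEC pig 547-14 at 3.53 FPKM. The mean was 2.77 ± 0.743 FPKM (SD, n = 6) against 7.54 ± 3.04 (SD, n = 5) (log2 difference −1.24, standard error 0.26, exact permutation p = 0.00216), and No NEC pigs were at 3.51 to 6.17 FPKM. Leaving out single pigs gave −1.46 to −1.06. NYAP2, an adaptor of PI3-kinase signaling in neurons, was at 6.37 (lowest), 12.4 (median) and 13.1 (highest) FPKM against 14.3, 15.2, 16.2, 16.9 and 17.3 FPKM (log2 difference −0.50, standard error 0.17, exact permutation p = 0.00216). Its lowest value came from pig 223-15, without which the difference was −0.35. ATP2B4, a plasma membrane calcium pump, had no overlap either, but 223-15 alone lay far from the rest at 8.79 FPKM. Without 223-15 its difference went from −0.42 to −0.18. RAB3D, a GTPase of vesicle release, differed by −0.41 (exact permutation p = 0.00649, 6 of 6 pigs lower, 1 of 2 entries of the symbol). TGDS, TTC12 and PANK3 were also lower in all 6 Si-NEC pigs than in any Co-NEC pig, by −0.37, −0.49 and −0.32. PANK3 makes the first step of coenzyme A synthesis, and TTC12 is needed to assemble dynein arms of cilia. SLC2A13, a myo-inositol transporter, and TMC7 differed by −0.33 and −0.50, with 4 and 5 of 6 Si-NEC pigs below all Co-NEC pigs.

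**Figure D2:**
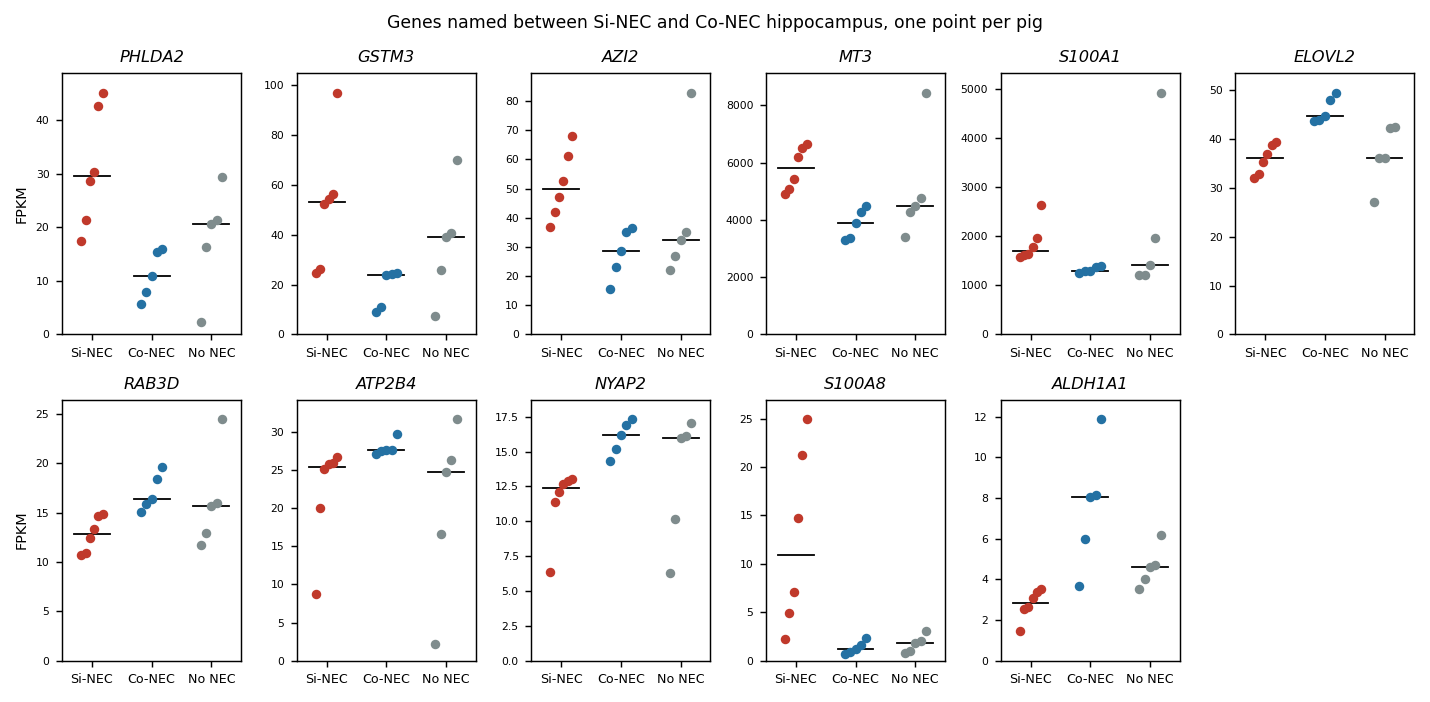
FPKM of 11 genes on a linear axis from 0, with 1 point per pig and a line at the group median for Si-NEC, Co-NEC and No NEC. The first 9 genes are those named for not overlapping between the NEC groups, without COX1. S100A8, in which pig 547-14 lay among the Co-NEC pigs, and ALDH1A1, in which Co-NEC pigs were highest, are added.

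Genes were then grouped into 39 lists of responses, cell types and processes, and 403 of their 804 symbols had 1 distinct entry among those tested. Of these 403 genes, 241 were higher and 162 lower in Si-NEC, with 28 higher (6.95%) and 17 lower (4.22%) at an unadjusted p under 0.05. Over all tested entries these shares were 3.25% and 2.4%. The lists were chosen with earlier results of these data known, so their larger shares are no independent result. A gene could be on several lists. Lists are described by counts and medians, with no test, beside the median of all tested entries, which was 4.82e-05. Every p given for a member is unadjusted, and no member other than COX1 passed the adjusted threshold.

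Genes of lipid synthesis lay on the low side in Si-NEC pigs, by small differences. Of the cholesterol synthesis genes, 14 of 14 tested had a difference below 0, as did 49.9% of all entries, with a median of −0.19, and 3 had an unadjusted p under 0.05, against 2.4% of all entries in this direction. SQLE, which oxidizes squalene, was at 57.4 (lowest), 74.9 (median) and 87.02 (highest) FPKM against 83.7, 85.9, 86.6, 93.4 and 105 FPKM. It was lower in 5 of 6 Si-NEC pigs than in any Co-NEC pig, the exception being 223-15 (log2 difference −0.32, standard error 0.11, exact permutation p = 0.013). HMGCS1, at the start of the pathway, differed by −0.33 (exact permutation p = 0.0498). The smallest differences were in NSDHL and DHCR7, −0.039 and −0.076, while MVK and SC5D differed by −0.30 and −0.28. INSIG1, which holds the sterol sensor in the endoplasmic reticulum, differed by −0.19.

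The cholesterol list kept its direction with every pig left out in turn (median −0.30 to −0.15) and within each suffix (−0.25 for 15 and −0.15 for 14). Without pig 223-15, 14 of 14 were below 0, where 53.4% of all entries were, and 6 had an unadjusted p under 0.05, against 4.66% of all entries. Averaged over the 14 genes and set against the Co-NEC mean, the Si-NEC pigs lay between −0.51 (224-15) and 0.0037 (223-15). Co-NEC pigs lay between −0.085 (545-14) and 0.19 (552-14). The ranges overlapped, with 224-15, 226-15, 246-15 and 539-14 below all Co-NEC pigs. No NEC pigs ranged from −0.16 to 0.30 on the same scale, with 230-15 at 0.30 and the others at 0.0080 at most.

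Fatty acid synthesis and desaturation showed 8 of 9 tested genes below 0 with a median of −0.19. SCD, the desaturase that makes monounsaturated fatty acids, was at 55.7 (lowest), 68.2 (median) and 99.7 (highest) FPKM in Si-NEC, while the Co-NEC pigs were at 92.6, 93.3, 95.7, 107 and 121 FPKM. All Si-NEC pigs but 547-14, at 99.7 FPKM, were below all Co-NEC pigs (log2 difference −0.51, standard error 0.14, exact permutation p = 0.0173). ACSL6, which activates long-chain polyunsaturated fatty acids, differed by −0.22 (exact permutation p = 0.0433). FASN and ACACA, the committed enzymes of fatty acid synthesis, differed by −0.22 and −0.23, and by −0.017 and −0.13 without pig 223-15. ME1 alone was above 0 (0.043). ELOVL2, which elongates polyunsaturated fatty acids on the way to docosahexaenoic acid, was not on the list but had one of the smallest p. It was at 32.1 (lowest), 36.2 (median) and 39.5 (highest) FPKM in the Si-NEC pigs and 43.7, 43.98, 44.8, 48.1 and 49.5 FPKM in the Co-NEC pigs, with no overlap (log2 difference −0.35, standard error 0.079, exact permutation p = 0.00216). Here the No NEC pigs, at 27.2 to 42.5 FPKM, were all below the Co-NEC pigs and overlapped with Si-NEC.

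**Figure D3:**
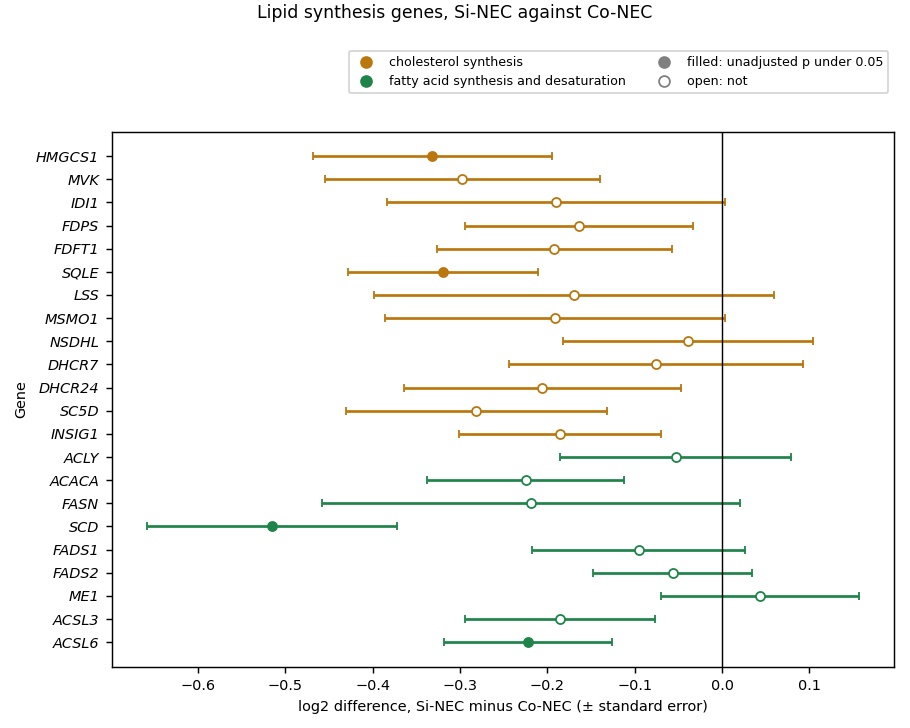
The log2 difference of 13 cholesterol and 9 fatty acid synthesis genes, Si-NEC minus Co-NEC, with its standard error from limma as bars. Filled circles have an unadjusted p under 0.05. All 13 cholesterol synthesis genes shown and all fatty acid genes but ME1 lie below 0.

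Myelin genes went in the same direction with more spread. Of the mature oligodendrocyte markers, 10 of 11 were below 0, with a median of −0.18. OPALIN, a membrane protein of myelinating oligodendrocytes, was at 22.98 (lowest), 29.6 (median) and 53.4 (highest) FPKM in Si-NEC and 30.7, 37.8, 44.9, 62.7 and 64.7 FPKM in Co-NEC. Pig 547-14 was the highest Si-NEC pig, and 3 Si-NEC pigs lay below all Co-NEC pigs (log2 difference −0.56, standard error 0.24, exact permutation p = 0.0758). TF, the iron carrier transferrin, which oligodendrocytes make, differed by −0.70 (exact permutation p = 0.0974), and GJB1 and ENPP2 by −0.34 and −0.32. CNP, an enzyme of the myelin sheath, differed by 0.032. Averaged over the list, Si-NEC pigs ran from −0.59 to 0.23 and Co-NEC pigs from −0.37 to 0.46 around the Co-NEC mean, with 224-15, 246-15 and 226-15 below all Co-NEC pigs. The median was −0.041 within the suffix 15 and −0.19 within the suffix 14. Among precursor markers, PTPRZ1 and PDGFRA differed by −0.35 and −0.33 (exact permutation p = 0.026 and 0.039), CSPG4 by 0.29 and OLIG1 by 0.050.

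The interferon response turned on 1 pig. All 27 tested genes of this list had their highest value among the 11 pigs in Si-NEC pig 246-15. With that pig, 18 of 27 were higher in Si-NEC and the median was 0.14, and none had an unadjusted p under 0.05. Without it, 27 of 27 were lower in Si-NEC, against 51.2% of all entries, the median was −0.35, and 7 had an unadjusted p under 0.05, which 3.57% of all entries had in that direction.

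Single genes show the same break. MX1, an antiviral GTPase, was at 229 FPKM in pig 246-15, where the remaining Si-NEC pigs had 25.9 to 37.04 FPKM, beside 25.2, 29.6, 31.8, 38.5 and 41.9 FPKM in Co-NEC. USP18, a brake on interferon receptor signaling, stood at 52.8 FPKM in pig 246-15, while the 5 others had 0.785 to 1.701 FPKM. MX2, IFI44 and RSAD2 differed by −0.94, −0.88 and −0.65 without that pig and by −0.31, −0.31 and 0.059 with it. UBE2L6 and HERC5, which conjugate the ubiquitin-like protein ISG15, went from 0.33 and 0.42 to −0.055 and −0.11. TLR3, a sensor of double-stranded RNA, had the smallest p of the list and was lower in either case (−0.42 and −0.61).

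The Co-NEC pigs were not uniform in this response either. Averaged over the 27 genes and set against the Co-NEC mean, pigs 255-15 and 231-15 stood at 0.44 and 0.40 and the other 3 between −0.34 and −0.16. Si-NEC pig 246-15 was at 2.59, and its 5 group mates at −0.59 to −0.10, overlapping with the lower Co-NEC pigs. No NEC pigs were at −0.27 to 0.59. Antigen presentation followed the same pig in part. TAP2, a peptide transporter, was at 12.6 FPKM in 246-15 and at 4.89 FPKM in 547-14, against 3.09 FPKM in the highest Co-NEC pig. The 4 tested genes of that list had differences above 0 (median 0.41, 0.13 without 246-15).

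**Figure D4:**
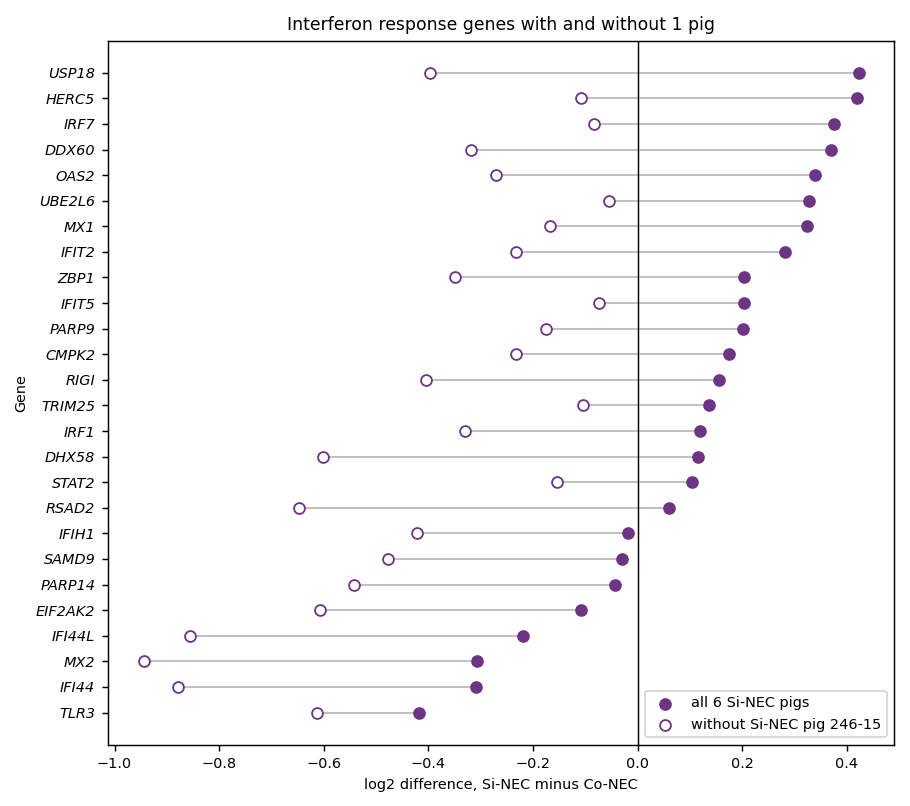
The log2 difference of 26 interferon response genes, Si-NEC minus Co-NEC, with all 6 Si-NEC pigs as filled circles and without Si-NEC pig 246-15 as open circles, joined by lines. All open circles lie below 0, while 18 of 26 filled circles lie above it.

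NF-kB genes lay on the high side with and without that pig. Of 16 tested, 14 were higher in Si-NEC, with a median of 0.26, 3 had an unadjusted p under 0.05 (3.25% of all entries did in this direction), and 11 were highest in pig 246-15. Without it 11 of 16 were higher and the median was 0.077. IER3, an early gene that limits NF-kB signaling and cell death, was at 1.59 (lowest), 2.48 (median) and 11.3 (highest) FPKM in Si-NEC and 0.494, 0.881, 1.15, 1.46 and 2.35 FPKM in Co-NEC. Pigs 246-15 and 224-15 were far above the rest, at 11.3 and 7.08 FPKM, and 4 of 6 Si-NEC pigs were above all Co-NEC pigs (log2 difference 1.28, standard error 0.44, exact permutation p = 0.0216, 0.97 without 246-15). No NEC pigs were at 0.0929 to 1.76 FPKM. TNIP1, an inhibitor of the pathway that binds A20, was at 19.5 (lowest), 23.1 (median) and 25.6 (highest) FPKM in Si-NEC and 16.5, 17.6, 18.8, 20.05 and 20.5 FPKM in Co-NEC. It did not depend on 1 pig, with 5 of 6 Si-NEC pigs above all Co-NEC pigs and 0.24 to 0.32 with pigs left out in turn (log2 difference 0.28, standard error 0.093, exact permutation p = 0.0173). TNFAIP3, which encodes A20, differed by 0.27, and by −0.045 without 246-15. NFKBIA, the inhibitor I kappa B alpha, was above all Co-NEC pigs in 5 of 6 Si-NEC pigs and below them in 547-14 (log2 difference 0.51, standard error 0.24, exact permutation p = 0.0996).

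The chemokine list had 5 of 10 genes higher (median 0.066, and 0.00017 without 246-15), among them 3 of 6 ligands and 2 of 4 receptors. Ligands that were higher stood out in single pigs. CXCL2, a neutrophil attractant, was at 7.54 FPKM in pig 246-15 and 1.74 FPKM in 224-15, with 0.219 to 0.602 FPKM in the other Si-NEC pigs. Co-NEC pigs were at 0, 0.0936, 0.113, 0.212 and 0.595 FPKM (exact permutation p = 0.0411, log2 difference 1.20 and 0.72 without 246-15). CCL2 and CXCL8 differed by 1.36 and 0.89 with that pig and by 0.53 and 0.29 without it. The receptors had a median of −0.15, with 1 of 4 higher and 1 of 4 lower at an unadjusted p under 0.05. In the whole list 2 of 10 were higher and 1 lower at that p, against 3.25% and 2.4% of all entries. ACKR3, a scavenger of CXCL12, was the higher receptor (0.36, exact permutation p = 0.0195). For ACKR3, 4 of 6 Si-NEC pigs lay above all Co-NEC pigs.

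STAT3-linked genes were mixed, 5 of 11 higher with a median of −0.061. TIMP1, an inhibitor of matrix metalloproteinases, was at 9.23 (lowest), 13.97 (median) and 21.4 (highest) FPKM in Si-NEC and 6.93, 7.39, 8.34, 9.14 and 12.1 FPKM in Co-NEC, and 3 Si-NEC pigs were above all Co-NEC pigs (log2 difference 0.68, standard error 0.23, exact permutation p = 0.0325). BCL3, an atypical I kappa B protein, differed by 0.71 (exact permutation p = 0.0519) and JAK1 by −0.27 (exact permutation p = 0.0238, −0.15 without pig 223-15). Among sensors of endotoxin, 8 of 12 were higher (median 0.15, −0.12 within the suffix 14 and 0.0032 without 246-15 and 223-15), with CD14, the endotoxin co-receptor, at 0.51 and TLR4 at 0.33. Of the complement genes, 9 of 11 were higher (median 0.27), but C3, the central component, was lower (−0.41). No endotoxin or complement gene had an unadjusted p under 0.05, and the complement median was −0.13 within the suffix 14. Glucocorticoid-responsive genes were higher in 6 of 7 (median 0.34), with the smallest p in PER1, a clock gene (0.36, exact permutation p = 0.0455). Their median was −0.19 within the suffix 14. Pig 547-14 was the lowest Si-NEC pig for PER1, PDK4 and NFKBIA of that list.

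Among hypoxia and glycolysis genes 14 of 21 were higher (median 0.037), and 1 had an unadjusted p under 0.05, against 3.25% of all entries. That gene was ADM, a vasodilator peptide induced by hypoxia and cytokines, at 1.02 (lowest), 2.71 (median) and 9.72 (highest) FPKM in Si-NEC and 0.322, 0.461, 0.951, 1.32 and 2.34 FPKM in Co-NEC. Pig 246-15 was highest at 9.72 FPKM and 4 of 6 Si-NEC pigs were above all Co-NEC pigs (log2 difference 1.26, standard error 0.44, exact permutation p = 0.0303, 0.95 without 246-15). Of other HIF targets, VEGFA was at −0.10, LDHA at −0.094 and PGK1 at 0.11. Of the vasoactive genes, 7 of 12 were higher (median 0.11), and EDNRB, an endothelin receptor, was lower (−0.45, exact permutation p = 0.0628). Immediate early genes were 6 of 13 higher (median −0.077, 0.21 within the suffix 15). IER2 and JUNB were higher (0.49 and 0.31, exact permutation p = 0.0325 and 0.0346), whereas BDNF, the neurotrophin released with neuronal activity, was lower. It was at 7.62 (lowest), 9.92 (median) and 12.7 (highest) FPKM in Si-NEC and 11.9, 12.3, 13.4, 14.1 and 14.6 FPKM in Co-NEC, with 4 of 6 Si-NEC pigs below all Co-NEC pigs (log2 difference −0.37, standard error 0.13, exact permutation p = 0.0216). The No NEC pigs were at 10.95 to 18.9 FPKM. Fuel-switch genes had 9 of 10 above 0 (median 0.17, −0.12 within the suffix 14) and heat shock and endoplasmic reticulum stress genes 13 of 15 (median 0.11, −0.0092 without pig 223-15), with none at an unadjusted p under 0.05. PDK4, which blocks pyruvate entry to the mitochondrion, was highest in pigs 224-15 and 223-15 (35.1 and 34.7 FPKM), and lowest in 547-14 (6.1 FPKM).

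Markers of the vessel wall tended to be higher. Of the endothelial markers, 8 of 12 were above 0 with a median of 0.11, and 4 had an unadjusted p under 0.05, against 3.25% of all entries. Without pig 246-15, 8 of 12 were above 0 (median 0.10), and 2 were higher and 1 lower at that p. Of all entries without that pig, 3.57% were lower at that p and a slightly smaller share was higher. SELP, a leukocyte adhesion receptor of activated endothelium, was at 0.634 (lowest), 1.54 (median) and 2.32 (highest) FPKM in Si-NEC and 0.209, 0.389, 0.411, 0.623 and 1.25 FPKM in Co-NEC (log2 difference 0.86, standard error 0.29, exact permutation p = 0.0325). Si-NEC pigs 246-15, 224-15 and 226-15 were above all Co-NEC pigs. PECAM1, a junction protein, was at 7.09 (lowest), 8.85 (median) and 13.4 (highest) FPKM against 5.08, 6.37, 6.91, 7.54 and 7.84 FPKM (log2 difference 0.48, standard error 0.18, exact permutation p = 0.0368). ENG, a co-receptor for TGF-beta, had no overlap, though pig 547-14 at 9.895 FPKM was close to Co-NEC pig 255-15 at 9.63 FPKM (log2 difference 0.44, standard error 0.17, exact permutation p = 0.0216). CLEC14A, an endothelial lectin, differed by 0.59 (exact permutation p = 0.0671). KDR, ERG and MFSD2A, which mark the same cells, differed by −0.35, −0.34 and −0.30, so the markers did not move as a block. Mural markers were above 0 in 9 of 11 (median 0.23, 0.18 without pig 246-15), among them DES, a muscle intermediate filament (0.43), TAGLN (0.67) and ACTA2 (0.39), and ABCC9 and NOTCH3 were at −0.27 and −0.11. Averaged per pig, the endothelial list was highest in 224-15 and 246-15 (0.43 and 0.37), and 4 of the 5 No NEC pigs were at 0.13 to 0.34, above all Co-NEC pigs.

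Microglial markers did not share a direction. TYROBP, a signaling adaptor, was at 19.1 (lowest), 29.8 (median) and 62.1 (highest) FPKM in Si-NEC against 16.1, 19.8, 21.1, 23.9 and 24.3 FPKM (log2 difference 0.58, standard error 0.25, exact permutation p = 0.0584, 0.38 without 223-15). The resting-state receptors P2RY12 and CX3CR1 differed by −0.53 and −0.44, and 4 and 3 of 6 Si-NEC pigs were below all Co-NEC pigs, while 223-15 was above them. Astrocyte markers centred on 0 (median 0.013, 5 of 9 higher). SLC4A4, a bicarbonate transporter, was lower (−0.33, exact permutation p = 0.0281), and GFAP differed by 0.087. Lymphocyte genes were near the detection limit, with CD3D, CD79B and MS4A1 at most 0.333 FPKM in these pigs, and NKG7, a cytotoxic cell marker, reached 6.56 FPKM in Co-NEC pig 225-15. HBB, the beta globin of red cells, was at 82.3 to 1281 FPKM in No NEC, 22.3 to 245 in Si-NEC and 71.6 to 322 in Co-NEC pigs, so the red cell signal was uneven within every group. Meningeal fibroblast genes were 5 of 10 higher (median −0.050), with VIM, an intermediate filament, at 0.39 and 0.23 without pig 223-15. The choroid plexus and ependyma list had 3 tested markers (median 0.033), with TTR at 1.19 and FOXJ1 at −0.057. TTR was listed at 0 in the lowest Co-NEC pig and at 25.3 FPKM in Si-NEC pig 246-15. No NEC pigs were at 4.73 to 23.4 FPKM for TTR.

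Neuronal genes were level as a list, with 8 of 15 markers above 0 and a median of 0.00020 (−0.18 within the suffix 14). SLC17A7, CAMK2A and MAP2 differed by 0.027, −0.024 and 0.00020. Single synaptic genes lay lower. SYT1, the calcium sensor of vesicle fusion, was at 251 (lowest), 295 (median) and 321 (highest) FPKM in Si-NEC and 295, 338, 340.2, 348 and 385 FPKM in Co-NEC (log2 difference −0.23, standard error 0.094, exact permutation p = 0.0195). SV2B, a vesicle glycoprotein, was at 32.7 (lowest), 41.4 (median) and 51.1 (highest) FPKM against 44.2, 48.1, 51.9, 61.8 and 64.9 FPKM, with 4 of 6 Si-NEC pigs below all Co-NEC pigs (log2 difference −0.34, standard error 0.13, exact permutation p = 0.0411). GRIN3A, an NMDA receptor subunit of immature synapses, was lower in 5 of 6 Si-NEC pigs than in any Co-NEC pig and higher in 246-15 (log2 difference −0.30, standard error 0.12, exact permutation p = 0.0368). GRIN2D, another NMDA receptor subunit, was at 0.38 (exact permutation p = 0.0736). GAD1, which makes GABA, had a small difference, at 78.02 (lowest), 83.1 (median) and 86.2 (highest) FPKM against 84.1, 87.8, 91.8, 92.4 and 92.7 FPKM, with 4 of 6 Si-NEC pigs below all Co-NEC pigs (log2 difference −0.12, standard error 0.064, exact permutation p = 0.0108). The counts were 10 of 15 lower for glutamate receptors, 8 of 13 for vesicle release and 8 of 12 for GABA genes, with medians of −0.029, −0.061 and −0.071. Pig 223-15 was the lowest for 9 of the 15 glutamate receptor genes. Without it the counts were 8 of 15, 9 of 13 and 8 of 12 (medians −0.013, −0.026 and −0.081). Of the glutamate receptors, 3 were then higher and 1 lower at an unadjusted p under 0.05, against 4.2% and 4.66% of all entries.

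Genes of neurogenesis were above 0 in 7 of 8 (median 0.15). NEUROD1, a transcription factor of newly born granule neurons, was at 8.69 (lowest), 9.52 (median) and 11.7 (highest) FPKM in Si-NEC and 6.11, 7.22, 7.41, 8.16 and 9.78 FPKM in Co-NEC. Only pig 224-15 lay above all Co-NEC pigs, because Co-NEC pig 225-15 reached 9.78 FPKM (log2 difference 0.32, standard error 0.12, exact permutation p = 0.0281). SOX11, expressed in immature neurons, differed by 0.21, PROX1 by 0.15 and DCX, a microtubule protein of migrating neurons, by −0.057. Proliferation genes were level (5 of 10 higher, median 0.0043, −0.25 within the suffix 14), with TOP2A at −0.34 and MCM4 at 0.21. In the apoptosis list, 6 of 11 were higher (median 0.014, −0.17 within the suffix 14), and BID, which links death receptors to mitochondria, was above all Co-NEC pigs in 5 of 6 Si-NEC pigs (log2 difference 0.42, standard error 0.16, exact permutation p = 0.0411).

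Ribosomal protein genes were higher in Si-NEC throughout. All 9 large-subunit and all 14 small-subunit genes tested had a difference above 0, with medians of 0.28 and 0.28. Pig 223-15 was the highest of the 11 pigs for 9 of 9 and 13 of 14 of them. RPS3 was at 598 (lowest), 675 (median) and 1145 (highest) FPKM in Si-NEC and 507, 511, 553, 569 and 626 FPKM in Co-NEC, and the highest value was that of 223-15 (log2 difference 0.40, standard error 0.16, exact permutation p = 0.0173). RPS12 did not overlap, with the other 5 Si-NEC pigs at 996 to 1202 FPKM and Co-NEC pigs at 833, 858, 858, 947 and 961 FPKM (log2 difference 0.34, standard error 0.14, exact permutation p = 0.00649). Without pig 223-15, 7 of 9 and 13 of 14 were above 0, where 46.6% of all entries were, and the medians were 0.10 and 0.13. At an unadjusted p under 0.05 there were then 3 and 4 genes, against 1 and 3 with all pigs, where 4.2% and 3.25% of all entries were higher at that p. No NEC pig 230-15 stood as far out as 223-15, at 0.98 for the small-subunit list beside 1.04, and the other No NEC pigs were at −0.0082 to 0.030. Subunits of complex I and ATP synthase were above 0 in 15 of 20 (median 0.076) and in 6 of 20 without pig 223-15 (median −0.048). Of 7 mitochondrially encoded genes tested, 5 were above 0, and ND3, a complex I subunit, was at 0.48.

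**Figure D5:**
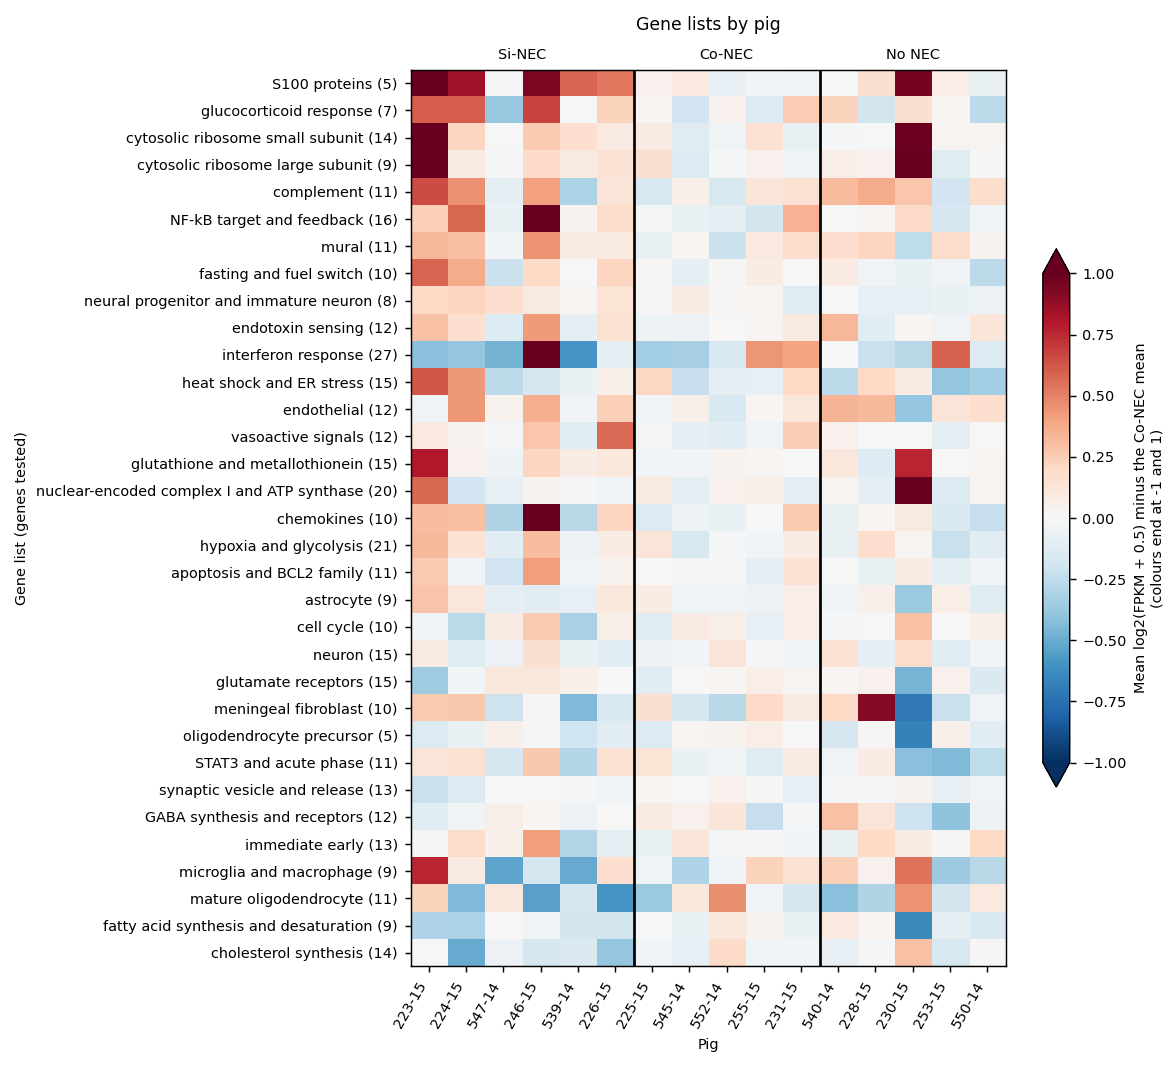
Each row is a gene list with at least 5 tested genes (number in brackets) and each column a pig; colour gives the mean log2(FPKM + 0.5) of the genes minus the Co-NEC mean. Mitochondrially encoded genes are left out because of the listed zeros of COX1. Pig 246-15 stands out for interferon, NF-kB and chemokine genes, and pigs 223-15 and 230-15 for ribosomal genes, while cholesterol synthesis is near or below the Co-NEC mean in every Si-NEC pig.

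The Si-NEC group was thus uneven. Pig 547-14 was the lowest Si-NEC pig for S100A8, CD14, NFKBIA, CXCL2, PDK4 and SELP, and it was within or near the Co-NEC range for all of them. At an adjusted p under 0.2 (limma), leaving this pig out gave 12 entries. Pig 246-15 had the highest interferon genes and the highest IER3, CXCL2 and ADM, and pig 224-15 the second highest IER3 and CXCL2 together with the lowest cholesterol synthesis genes. Pigs of the suffix 14 gave smaller differences than those of the suffix 15 for S100A8, CXCL2 and SELP (0.88, 0.43 and 0.42 against 3.34, 1.58 and 1.05), and a larger one for ELOVL2 (−0.53 against −0.26). These differences between suffixes were not tested, and all suffix 14 pigs were male. The interaction of group and sex (limma, adjusted p under 0.2) was called for 1 entry (0.00736%), ENSSSCG00000009003, with an adjusted p of 0.0547. It was listed at 0 in the 3 male Co-NEC pigs and at 4.12 and 2.21 FPKM in the 2 female ones, while Si-NEC pigs were at 3.16 to 5.57 FPKM.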

How the data were processed

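Hippocampal RNA of 16 pigs was sequenced, and groups and sex were taken from the labels. The authors aligned trimmed reads with TopHat 2.1.1 to Sscrofa10.2 and deposited FPKM values per gene from Cufflinks 2.2.1, which were used without further scaling. There are no counts, so depth and counting error are unknown, and an exact 0 can be a failed estimate. FPKM divides by length and library size, so a change in a few abundant genes shifts the others.

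Identical entries (1779) were dropped, as were those averaging below 0.5 FPKM in the 16 pigs. Symbols came from the gene ID only (9068 of 13590 tested entries), and 12 listed symbols with several entries were left out of lists. Si-NEC and Co-NEC were fitted with limma 3.58.1 in R 4.3.3 (trended eBayes, no covariate) on log2(FPKM + 0.5). The p-values were adjusted by Benjamini-Hochberg, with 0.2 as threshold, as in the study. This offset understates changes of low genes. Single genes also had a 2-sided exact permutation test. The fit was tested on simulated data. Named were entries past the threshold, the 10 with a symbol and the smallest p in each direction, up to 3 genes with the smallest p per response list (2 per cell or process list), and the 5 non-overlapping genes per direction with the largest difference at a mean of at least 5 FPKM. Some genes are not reported here. Others given with values were picked afterwards to describe a list. The comparison, members and lists were chosen with earlier results of these data known. Alternatives were 25 other settings and 1 more, without pigs 246-15 and 223-15, chosen after seeing the data.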

Additional observations from a re-analysis of the deposited data

Results flagged for a closer look

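Within each group of 5 or 6 pigs, the highest and lowest values of the named genes were compared with the nearest other value. Of the 202 groups of values, 29 held a pig set apart beyond Dixon's 95% limit. About 1 in 20, or 10.1, would be set apart if the values were independent and normally distributed. These were FPKM of genes picked from the same pigs, so that number is only a rough guide. Of the 29, 11 belonged to pig 223-15 and 7 to pig 246-15. In FPKM, Si-NEC pig 223-15 was high for S100A1 (2636, others 1573 to 1962), VIM (336, others 151 to 183), RPLP1 (2006, others 1069.6 to 1327), RPL27 (503, others 251 to 314), RPS3 (1145, others 598 to 759), NDUFA2 (207, others 124 to 144) and NDUFS4 (223, others 88.4 to 125). It was low for JAK1 (22.1, others 35.1 to 39.3), NOS3 (5.51, others 8.2 to 9.46), NYAP2 (6.37, others 11.4 to 13.1) and ATP2B4 (8.79, others 20.04 to 26.7). Si-NEC pig 246-15 was high for UBE2L6 (115, others 20.01 to 26.9), HERC5 (6.299, others 0.152 to 0.448), TAP2 (12.6, others 0.786 to 4.89), CXCL2 (7.54, others 0.219 to 1.74), ADM (9.72, others 1.02 to 3.24) and TTR (25.3, others 5.39 to 12.3), and low for FOXJ1 (3.13, others 9.604 to 10.5). In the other Si-NEC pigs, 547-14 was high for TMC7 (4.16, others 2.41 to 2.76), OPALIN (53.4, others 22.98 to 33.1) and SLC12A2 (12.5, others 7.13 to 8.54), 539-14 for ENSSSCG00000010942 (8.46, others 2.9 to 4.48) and 224-15 for NEUROD1 (11.7, others 8.69 to 9.78). Among the Co-NEC pigs, 231-15 was high for ENSSSCG00000010942 (1.89, others 0 to 0) and SLA-DQB1 (6.45, others 0.466 to 2.05), and 255-15 for TAP2 (3.09, others 0.579 to 1.13) and PDK2 (171, others 87.7 to 111). Co-NEC pig 225-15 was high for ATP2B4 (29.7, others 27.1 to 27.6) and low for C3 (3.93, others 5.99 to 6.75).

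The difference between Si-NEC and Co-NEC depended on sex for 1 entry, ENSSSCG00000009003, by 3.12 on the log2 scale (limma interaction, standard error 0.34, adjusted p = 0.0547). The log2 difference was 0.40 in females and 3.52 in males, whose Co-NEC pigs were all listed at 0. An unadjusted p under 0.05 for the interaction was reached by 1383 entries (10.18%), where 679.5 would be expected from uniform p-values. Only 3 Si-NEC and 2 Co-NEC pigs were female. Pigs 223-15 and 246-15, the pigs most often set apart above, were both female Si-NEC pigs, and all suffix 14 pigs were male. Whether this excess goes with sex, with those single pigs or with the suffix was not tested.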

How the results depend on the processing

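No paired analysis was possible because the groups were different pigs and the labels give no litters. Against 2 entries past an adjusted p of 0.2 (limma), 1 passed with a pseudocount of 0.1, no filter on low values, all 3 groups in one fit, sex or suffix as a covariate, without pigs 246-15 and 223-15 together, or at a threshold of 0.05. There were 8 in the suffix 14 pigs and 201 with array weights, and 1 to 12 with each pig left out in turn (12 without 547-14, 5 without 255-15). The 767 entries at an unadjusted p under 0.05 became 499 with all 3 groups in one fit, 349 and 2640 within the suffixes 15 and 14, 2159 with array weights, 1662 without 246-15 and 223-15, and 489 to 1204 with each pig left out (1204 without 223-15, 489 without 552-14, 497 without 545-14). The share of these that were higher in Si-NEC, 57.5%, became 72.2% and 40.5% within the suffixes 15 and 14, 44.0% with array weights, 36.9% without 246-15 and 223-15, and 47.4% to 63.3% with each pig left out (47.4% without 223-15). Non-overlapping entries, 74, were 85 to 382 with each pig left out, 382 without 255-15, 188 without 246-15 and 187 without 547-14. This count can only stay or rise when a pig is left out, and why the rise differed between pigs was not tested. The entry whose difference depended on sex was 1, and the count became 0 with a pseudocount of 1, 9 with no filter on low values and 0 to 4 with each pig left out.

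Of 106 named genes, 94 kept their sign in every setting. Reversed were CD8A (0.013) within the suffix 15, and within the suffix 14 SLA-DQB1 (−0.82), MYD88 (−0.065), SERPING1 (−0.13), PDK4 (−0.19), NKG7 (0.26), FOXJ1 (0.30), NDUFS4 (−0.044) and MCM4 (−0.040). FOXJ1 also reversed with array weights (0.019), without 231-15 (0.049) and without 246-15 (0.20). UBE2L6 (−0.055) and HERC5 (−0.11) reversed without 246-15 (with each pig left out, −0.055 to 0.45 and −0.11 to 0.63), and HBB (0.14) without 539-14 (range −0.61 to 0.14). FOXJ1 ranged from −0.13 to 0.20 with each pig left out. Without both 246-15 and 223-15, UBE2L6 (−0.11), HERC5 (−0.13), SLA-DQB1 (−0.21), SERPING1 (−0.048) and FOXJ1 (0.20) did. Array weights took 28 named genes past the threshold, beside the 2 entries already past it. The median kept its sign in every setting for 13 of 39 lists, among them NF-kB, S100, cholesterol synthesis, fatty acid synthesis, mature oligodendrocyte, endothelial, mural and both ribosomal lists. The causes were not tested. ENSSSCG00000010942 stayed past the threshold with a pseudocount of 1, a minimum mean of 1 FPKM, rescaling, array weights, robust or untrended eBayes, without 231-15 or without 547-14, and not in the other settings. Unknown depth limits the low values most.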
